A study of Mus musculus with 8 samples.

Results

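The genes of prostaglandin synthesis and reception followed here were the 9 rows of the count table whose gene symbol is Pla2g4a, Ptgs1, Ptgs2, Ptges, Ptges2, Ptges3, Ptger2, Ptger4 or Alox5ap, out of 23143 genes in all. They were measured in RAW264.7 cells, a transformed mouse macrophage line, as a time course of the first response to lipopolysaccharide (LPS), the bacterial product that activates Toll-like receptor signalling. One group was the unstimulated culture (0 min) and the other 7 groups were cultures given 100 ng/ml of LPS from E. coli, sampled each 15 min from 15 to 90 min and then at 120 min, with no other agent or genetic change named in the labels. Each time had 1 library (n = 1), so a value at a time point is the value of 1 sample and nothing is known of the spread between cultures. The 95% intervals below cover counting error only. The labels call the RNA fraction cytoplasmic, while the molecule field and the methods describe total RNA.

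Prostaglandins are made from arachidonic acid. Cytosolic phospholipase A2 (Pla2g4a) cuts this fatty acid out of membrane lipids, the cyclooxygenases (Ptgs1, constitutive, and Ptgs2, inducible) turn it into the intermediate PGH2, and PGE synthases (the inducible Ptges and the constitutive Ptges2 and Ptges3) turn that into PGE2, which macrophages release during inflammation. PGE2 acts on the cells through G protein-coupled receptors, of which EP2 (Ptger2) and EP4 (Ptger4) raise cyclic AMP, and the protein encoded by Alox5ap instead presents arachidonic acid to the lipoxygenase Alox5, which starts leukotriene synthesis.

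The total counts ranged from 100250892 to 159077286 per library, and the median-of-ratios size factors, by which counts were divided to give the normalized counts below, ranged from 0.71 (75 min) to 1.23 (120 min). The ribosomal RNA precursor Rn45s took 8.18% to 9.11% of the counts at 0, 30, 60 and 120 min, and 12.96% to 20.53% at 15, 45, 75 and 90 min, so the form of each member's time course was also judged on the libraries with the low share alone. The cultures answered LPS: at 120 min the log2 ratio to 0 min was 5.33 for Tnf, 11.46 for Il1b, 10.01 for Cxcl2 and 2.93 for Nfkbia. Of 11 macrophage marker symbols, the 9 in the table were all expressed (summed level 5440 to 6636 counts per 1e6, Cd14 called higher and Tlr4 lower at 120 min). The 14 markers of T, B and mast cells, epithelium, fibroblasts and endothelium summed to 0.0931 to 0.208 counts per 1e6, with 8 of them at 0 in all 8 libraries and none above 20 counts.

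Ptgs2, Ptges and Ptger4 were the only members that passed the test against the unstimulated library in any of the 7 comparisons. Ptgs2 mRNA rose from 30 min on and reached 55.0-fold at 120 min, and Ptges mRNA rose from 45 min on and reached 14.2-fold. Ptger4 mRNA was raised from 45 to 90 min, most at 60 and 75 min (2.81-fold and 3.04-fold). At 120 min Ptger4 was again within 1.16-fold of the start. With the size factors, the remaining members (Pla2g4a, Ptgs1, Ptges2, Ptges3 and Alox5ap) stayed between 0.706-fold and 1.28-fold of the 0 min value. On any scale used, the lowest log2 ratio was -0.7 for Ptgs1 and Alox5ap, -0.6 for Ptges2 and -0.45 for Pla2g4a, and none was called. Ptger2 had 3 reads over the whole series. A gene is called here where the log2 ratio of 2 libraries is beyond 0.5 and the exact negative binomial test, with the spread estimated over all 8 libraries as if they were replicates, gives an unadjusted p under 0.05; this test compares libraries, not conditions. In bulk RNA, fewer cells that express a gene and less RNA per cell cannot be told apart.

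**Figure D1:**
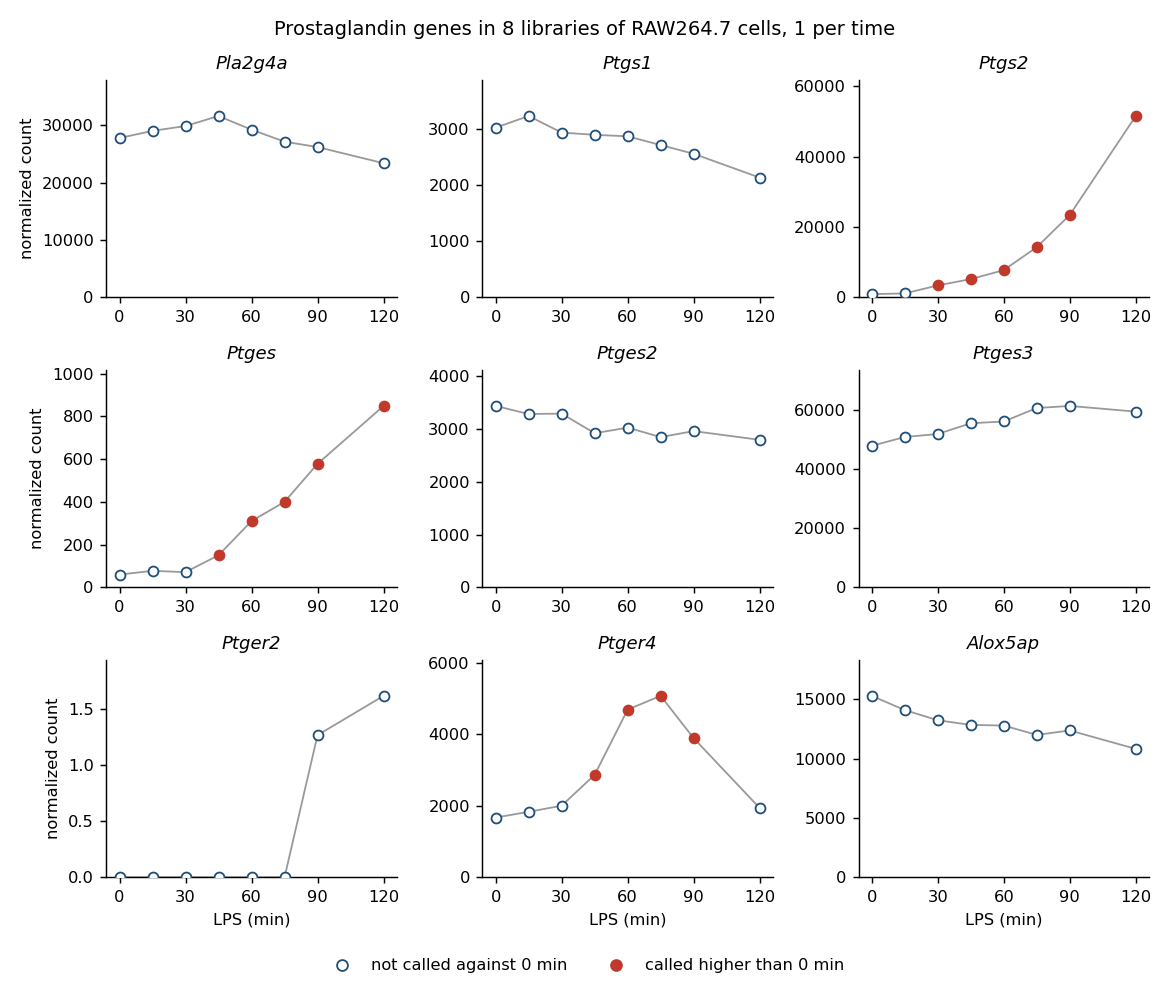
Normalized counts (y axis, starting at 0, a scale of its own in each panel) of the 9 members against the time with LPS (x axis, min), 1 point per library and no replicates. Filled red points are called higher than 0 min: 6 for Ptgs2, 5 for Ptges and 4 for Ptger4; open points are not called.

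The number of members called higher was 0 of 9 at 15 min, 1 at 30 min (Ptgs2), 3 at each of 45, 60, 75 and 90 min (Ptgs2, Ptges and Ptger4) and 2 at 120 min (Ptgs2 and Ptges). Among all genes with a read in the libraries compared, 0.295% (15 min), 1.14% (30 min), 3.8% (45 min), 3.43% (60 min), 4.77% (75 min), 5.79% (90 min) and 7.63% (120 min) were called higher. No member was called lower in any library, where 0.164%, 0.202%, 1.5%, 2.36%, 3.48%, 4.42% and 6.7% of all genes were. The balance of higher and lower calls over all genes turned with the scale: total counts gave 298 higher against 305 lower calls at 45 min (581 and 230 with size factors), 357 and 1066 at 75 min (729 and 531), 472 and 1002 at 90 min (889 and 678) and 677 and 1250 at 120 min (1196 and 1049). With Benjamini-Hochberg adjusted p-values from the same exact test, only Ptgs2 was called at 45 min, and the calls at the other times were as before. Of the 9 members, 8 averaged 10 or more normalized counts over the libraries and Ptger2 (0.361) did not.

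The sequences around the starts of the members called at 120 min are shown because they are the region in which the regulation of an inducible gene is first looked for. They were taken from the RefSeq promoter table of GRCm38.p6, which held 8 of the 9 members (not Alox5ap), and reach from 250 bases before to 50 bases after the annotated start. The Ptgs2 stretch lies at chr1:150099781-150100080 (plus strand) and that of Ptges at chr2:30903248-30903547 (minus strand). The RefSeq span of Ptges runs from 30889471 to 30931020, so its stretch lies around a start inside that span, not at the upstream end. Capitals mark a match to a searched motif.

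Ptgs2: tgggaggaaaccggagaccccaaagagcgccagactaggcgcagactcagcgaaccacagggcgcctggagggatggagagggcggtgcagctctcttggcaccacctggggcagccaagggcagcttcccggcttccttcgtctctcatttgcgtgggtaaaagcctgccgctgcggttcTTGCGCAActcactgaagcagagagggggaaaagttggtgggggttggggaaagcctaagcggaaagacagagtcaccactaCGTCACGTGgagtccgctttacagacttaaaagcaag

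Ptges: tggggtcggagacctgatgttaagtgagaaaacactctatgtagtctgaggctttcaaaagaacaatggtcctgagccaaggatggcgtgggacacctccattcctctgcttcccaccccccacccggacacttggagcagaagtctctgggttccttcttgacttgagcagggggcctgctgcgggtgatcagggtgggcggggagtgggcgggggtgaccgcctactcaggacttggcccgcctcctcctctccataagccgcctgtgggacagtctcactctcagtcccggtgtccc

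The motifs were searched on both strands as the kappaB consensus bound by NF-κB, the cyclic AMP response element TGACGTCA, the first 5 bases of that element (TGACG) on their own, the E-box letters CACGTG, the AP-1 letters TGANTCA, the C/EBP letters TTNCGNAA and the TATA box (TATAAA). Of the 32851 promoters of the table, 8.46%, 1.79%, 20.8%, 7.15%, 7.81%, 2.47% and 13.6% held them in that order. The Ptgs2 stretch held 3 matches, with positions counted from the annotated start. Whether transcription begins at that base in these cells was not tested, and letters outside the stretches were not searched. TTGCGCAA, a C/EBP match, lay 69 to 62 bases before the annotated start. A minus-strand match to the first 5 bases of the cyclic AMP response element lay past it at bases 13 to 17, overlapped by an E-box match at bases 16 to 21. The Ptges stretch held none of these letters, and neither did those of Ptger4, Ptgs1 and Ptger2. Among the members that were not called, the Ptges2 stretch held CACGTG and that of Ptges3 a kappaB consensus and a minus-strand TGACG. A minus-strand TATAAA lay in 1 of the 2 Pla2g4a stretches. A match is only a description of letters, and no match says nothing of a factor.

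Pla2g4a, which supplies the arachidonic acid, was among the abundant members throughout. Its normalized counts ran 27812, 29061, 29909 and 31653 from 0 to 45 min, then 29265, 27179, 26238 and 23418 from 60 to 120 min. The highest library (45 min) and the lowest (120 min) differed 1.35-fold, and no comparison with 0 min was called, with a ratio of 0.842 at 120 min (0.829 to 0.856). Pla2g4a is a neighbour of Ptgs2 on chromosome 1 of GRCm38.p6. The upstream end of Pla2g4a (minus strand) is at 149961290 and that of Ptgs2 (plus strand) at 150100031. The gap of 138.7 kb between these upstream ends holds 0 annotated protein-coding genes. At 120 min the log2 ratios of these neighbours were -0.25 and 5.78.

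Ptgs1, the constitutive cyclooxygenase, gave normalized counts of 3016, 3223, 2929, 2889, 2862, 2707, 2552 and 2129 in the 8 libraries in order of time. The lowest value was the last, at a ratio of 0.706 (0.671 to 0.743) to 0 min, and it was not called (log2 ratio -0.50, p = 0.154 in the exact test of the pair of libraries).

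Ptgs2, the inducible cyclooxygenase, gave 936, 1132, 3413, 5195, 7747, 14278, 23416 and 51508 normalized counts from 0 to 120 min. Every library after 0 min was above the one before it. The step from 15 to 30 min was 3.01-fold (2.83 to 3.22) and was called; the steps from 30 to 45 min (1.52-fold) and from 45 to 60 min (1.49-fold) were not called; and those from 60 to 75 min (1.84-fold), 75 to 90 min (1.64-fold) and 90 to 120 min (2.2-fold, over a longer interval) were called again. The ratio to 0 min was 1.21 (1.11 to 1.32) at 15 min and 3.65 (3.41 to 3.9) at 30 min. At 60 min it was 8.28 (7.77 to 8.82), in the 90 min library 25.0 (23.5 to 26.6) and in the last 55.0 (51.8 to 58.5). Among 12152 genes with at least 10 normalized counts on average and a read at 0 min, Ptgs2 held the place 69 from the highest ratio at 30 min, 76 at 60 min and 22 at 120 min. At 60 min its mRNA had reached 15.0% of its 120 min level.

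**Figure D2:**
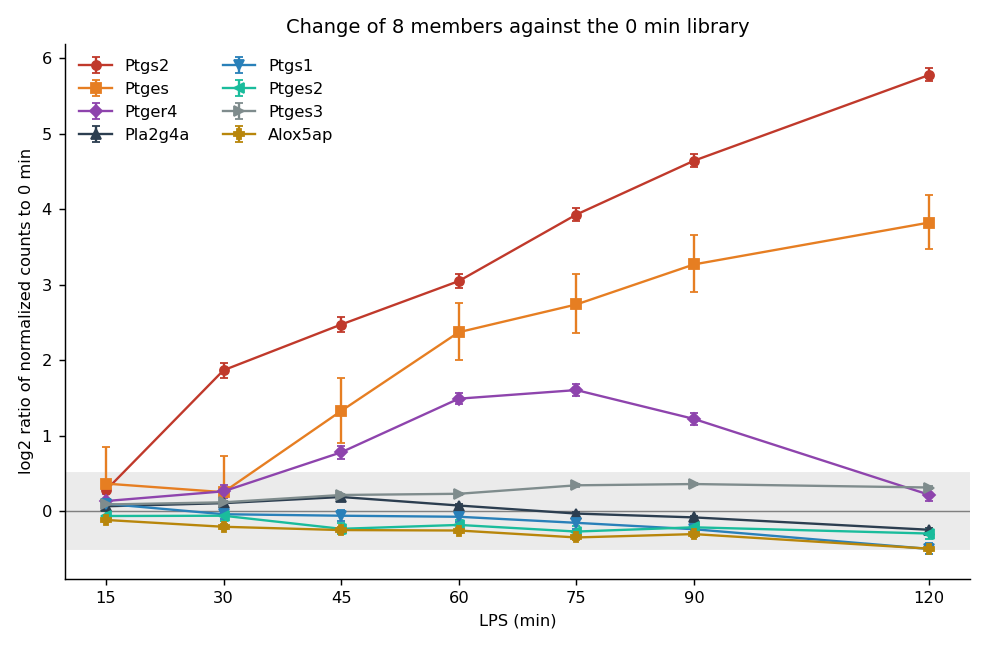
Log2 ratio of normalized counts to the 0 min library (y axis) against time with LPS (x axis, min) for the 8 members with reads at 0 min; bars are 95% counting intervals with no replicate error, and the grey band spans the log2 limit of -0.5 to 0.5. Ptgs2 and Ptges climb to 5.78 and 3.82 at 120 min, Ptger4 peaks at 1.60 at 75 min and returns to 0.21, and the other 5 members lie between -0.50 and 0.36.

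The balance of the cyclooxygenases can be compared per length, as counts per unique 58-base position of the transcripts, and this ratio within a library does not depend on the scaling. Ptgs2 was at 0.198 (0.185 to 0.212) of Ptgs1 at 0 min and 0.225 (0.21 to 0.24) at 15 min. It was at 0.745 (0.712 to 0.779) at 30 min, and at 1.15 (1.1 to 1.21) at 45 min, the first library in which the inducible form was the more abundant. The ratio then went through 1.73, 3.37 and 5.87 to 15.5 (14.9 to 16.1) at 120 min. As a share of both cyclooxygenase mRNAs, Ptgs2 made up 16.6% at 0 min, 63.4% at 60 min and 93.9% at 120 min.

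**Figure D3:**
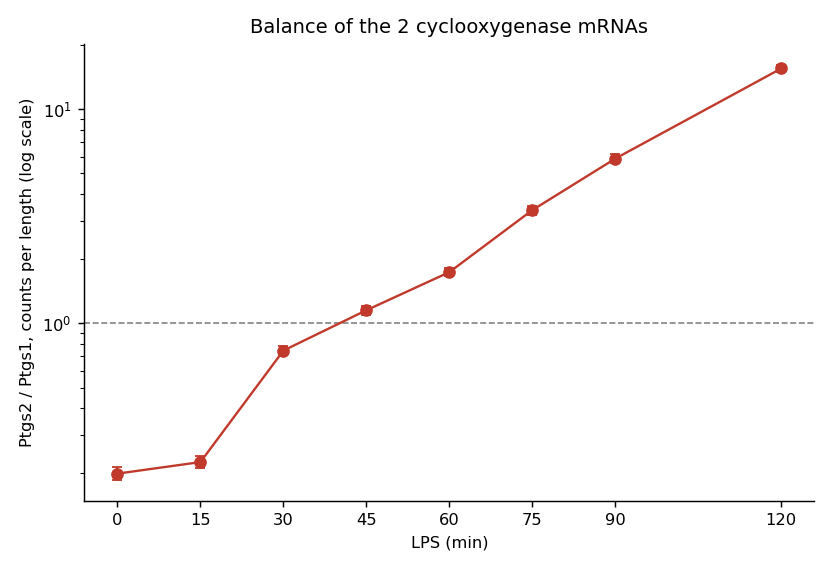
Ratio of Ptgs2 to Ptgs1, each as counts per length (y axis, log scale), against time with LPS (x axis, min), 1 library per time; bars are 95% counting intervals and the dashed line marks equal levels. The ratio is 0.198 at 0 min, passes 1 between the 30 and 45 min libraries and is 15.5 at 120 min.

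Ptges, the inducible PGE synthase that is usually coupled with Ptgs2, was the rarest expressed member and gave 59.9, 77.1, 71.2, 150.2, 309.9, 399.9, 577.7 and 848.5 normalized counts (70, 81, 87, 133, 348, 284, 455 and 1047 reads). The 0, 15 and 30 min libraries were low and each later library was above the one before. The steps from 30 to 45 min (2.11-fold) and from 45 to 60 min (2.06-fold) were called. Those from 60 to 75 min (1.29-fold), 75 to 90 min (1.44-fold) and 90 to 120 min (1.47-fold) were not. The ratio of Ptges to 0 min was 1.19 (0.859 to 1.65) at 30 min, when Ptgs2 was already called, and 2.51 (1.86 to 3.4) at 45 min. It was 5.17 (3.99 to 6.79) in the 60 min library and 14.2 (11.1 to 18.3) in the last. At 60 min it had reached 36.5% of its 120 min level. The per-length ratio of Ptgs2 to Ptges was 12.8 (10.0 to 16.5) before LPS and 39.1 (31.6 to 49) after 30 min of it, then 20.4 (18.3 to 22.8) after 60 min and 49.6 (46.6 to 52.7) after 120 min, so the excess of Ptgs2 over Ptges was larger at 30 and 120 min than at 0 and 60 min beyond counting error. The RefSeq span of Ptges overlaps 2 other annotated genes, neither of which is in the count table.

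Ptges2, a membrane-associated PGE synthase, gave 3436, 3283, 3291, 2919, 3025, 2846, 2959 and 2794 normalized counts from 0 to 120 min. The highest and the lowest differed 1.23-fold and no library was called. Ptges3, a cytosolic PGE synthase that is also known as the Hsp90 co-chaperone p23, gave 48017, 51002, 52032, 55661, 56275, 60840, 61548 and 59623. All 7 stimulated libraries were above 0 min for Ptges3, by at most 1.28-fold (1.27 to 1.3), and none was called. With total counts as the scale, the log2 ratio of Ptges3 was 0.0089 at 75 min and 0.098 at 90 min, in place of 0.34 and 0.36. On the per-length scale Ptges made up 0.0656% of the mRNA of the 3 PGE synthases at 0 min and 0.751% at 120 min, nearly all of the rest being Ptges3.

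Of the PGE2 receptors, Ptger2 (EP2) had 0 reads in the libraries from 0 to 75 min, 1 read at 90 min and 2 at 120 min. A count of 0, taken to allow 3 counts, limits it to at most 0.00631 rpkm at 0 min, where Ptger4 stood at 4.49. Ptger4 (EP4) gave 1672, 1833, 2004, 2868, 4696, 5081, 3896 and 1940 normalized counts from 0 to 120 min. The 60 and 75 min libraries were the highest, and the 120 min library was close to those at 15 and 30 min. Which of the 60 and 75 min libraries was higher depended on the scale, and the step between them was not called (1.08-fold). With total counts the log2 ratio was 1.395 at 60 min and 1.271 at 75 min. With the size factors the ratio to 0 min was 1.72 (1.62 to 1.82) at 45 min, then 2.81 (2.67 to 2.96), 3.04 (2.88 to 3.21) and 2.33 (2.2 to 2.47) in the 60, 75 and 90 min libraries. In the last it was 1.16 (1.09 to 1.23) and was not called. The fall from 75 to 120 min was itself called, at a ratio of 0.382 (0.363 to 0.402), as was that from 60 to 120 min at 0.413 (0.394 to 0.434), which compares libraries that both have a low share of Rn45s. The call at 45 min (p = 0.0292 in the exact test) was lost when libraries were scaled by total counts, where the log2 ratio was 0.59 in place of 0.78, and with the edgeR dispersion trend.

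Alox5ap, the leukotriene branch member, gave normalized counts of 15278, 14079, 13224, 12831, 12778, 11988, 12365 and 10811. All stimulated libraries were below 0 min, the lowest being 120 min at a ratio of 0.708 (0.692 to 0.724), and none was called (p = 0.153 in the exact test at 120 min).

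By the form of the time course, with g1 holding genes whose first called maximum comes at 60 min or later and g0 those with no called turn, Ptgs2, Ptges and Ptger4 fell in g1 and the other 6 members in g0. Of all 16967 genes with a read, 7.34% were in g1 and 83% in g0. For Ptgs2 and Ptges the maximum was the last library, while Ptger4, with the size factors, had a maximum at 75 min and a called minimum at 120 min. Ptgs2, Ptges and Ptger4 kept their group when each stimulated library was left out in turn and when only the 0, 30, 60 and 120 min libraries were used. These checks reused the calls of the full series, so the other 6 members, never called against 0 min, could not leave g0.

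Compared per length (rpkm, reads per 1e3 unique positions and 1e6 counts), the order of levels at 0 min was Ptges3 (220.4), Alox5ap (114.1), Pla2g4a (88.6), Ptgs1 (9.57), Ptges2 (6.23), Ptger4 (4.49), Ptgs2 (1.90), Ptges (0.149) and Ptger2 (0). No neighbours in this order had overlapping counting intervals. At 120 min Ptgs2 stood second, at 90.9 rpkm (90.2 to 91.6), behind Ptges3 (238) and ahead of Alox5ap (70.2), Pla2g4a (64.9), Ptgs1 (5.88), Ptger4 (4.53), Ptges2 (4.41) and Ptges (1.83). There the intervals of Ptger4 (4.35 to 4.72) and Ptges2 (4.26 to 4.55) overlapped. Ptges was the lowest of the 8 members with reads at 0 min in all 8 libraries, also after its rise.

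**Figure D4:**
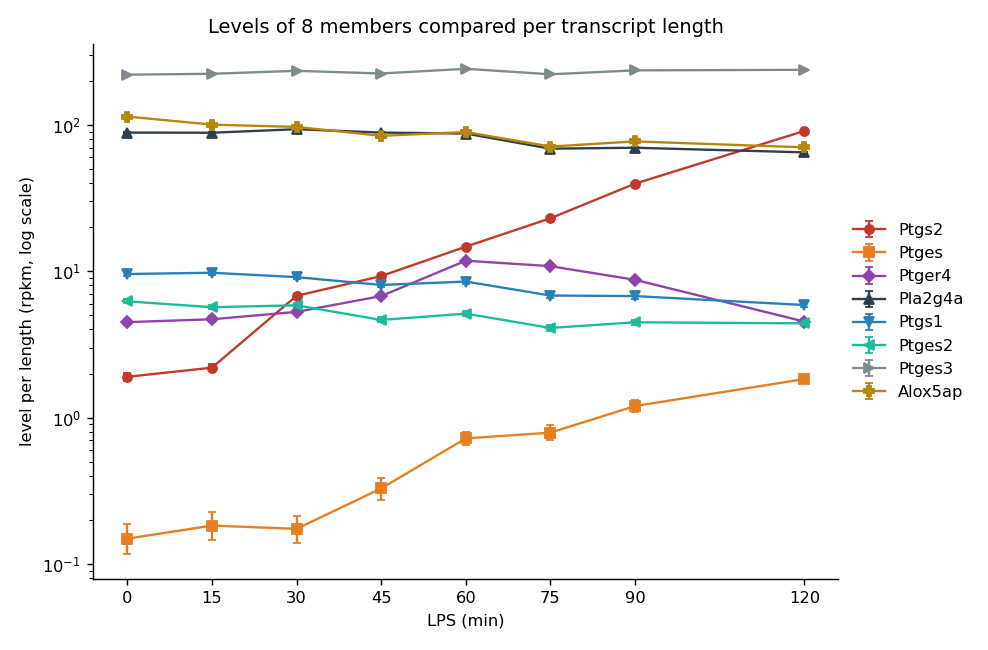
Level per length (y axis, rpkm, log scale) of the 8 members with reads at 0 min against time with LPS (x axis, min), 1 library per time; bars are 95% Poisson intervals, smaller than most symbols. Ptgs2 moves from 1.90 to 90.9 rpkm past 5 other members, Ptges3 stays highest at 220.4 to 241.8, and Ptges stays lowest.

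The 3 members called also differ in a sequence feature of their mRNAs that was counted after their values had been seen, the pentamer AUUUA, which is known from unstable inflammatory mRNAs. In the longest annotated 3′ UTR (GENCODE vM21, GRCm38), Ptgs2 had 14 in 2445 bases and Ptger4 had 5 in 1233 bases, and Ptges had 0 in 3106 bases. Of 11302 genes that averaged at least 10 normalized counts, 2.33% had at least as many as Ptgs2, 20.4% at least as many as Ptger4, and 32.7% had none. Per kb the counts were 5.73 for Ptgs2 and 4.06 for Ptger4, against a median of 1.24 over those genes. The members that were not called had 0 (Ptgs1), 4 (Ptges2), 4 (Ptges3), 6 (Ptger2), 4 (Pla2g4a) and 2 (Alox5ap), and the densest of all 9 was Pla2g4a (9.03 per kb in 443 bases). The window of 30 bases with the most pentamers is shown for Ptgs2 (4 pentamers, chr1:150105798-150105827, plus strand, 16 bases into the UTR) and for Ptger4 (2 pentamers, chr15:5234207-5234236, minus strand), with complete pentamers in capitals and T for U.

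Ptgs2: ATTTATTTATTTAtgtgaagaATTTAattt

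Ptger4: ATTTAaggtATTTAtgttcttctctgtgag

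The other genes of the pathway were described by lists of 69 genes in the table. At 120 min, 5 of them were called higher and 7 lower, against 2 of 9 and 0 of 9 members and 7.63% and 6.7% of all genes. With total counts as the scale, or with adjusted p-values, Pde4b was the only one of the 69 called higher; with the latter, Pla2g4e, Pla2g15 and Abhd6 were those called lower. The list medians of the log2 ratio at 120 min, over genes averaging 10 or more normalized counts, lay between -0.34 and -0.01, beside -0.01 over all 12166 such genes and -0.02 over 8 members.

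In the list of arachidonic acid supply (20 genes, 16 of them with a mean of at least 10), 3 were called higher and 4 lower at 120 min. The secreted phospholipase Pla2g5 went from 6112 normalized counts at 0 min to 10165 at 120 min (log2 ratio 0.73), the calcium-independent phospholipase Pla2g6 from 679 to 1166 (0.78) and Acsl4, which loads arachidonic acid onto coenzyme A, from 13373 to 24612 (0.88). The lysosomal phospholipase Pla2g15 fell early: its counts were 1837 (0 min), 1508 (30 min), 504 (60 min), 413 (90 min) and 548 (120 min), and it was called lower from 45 min on (log2 ratio -1.75 at 120 min). Pla2g4e was at 133.5 and 51.1 at 0 and 120 min (-1.39), and the diacylglycerol lipase Dagla at 29.9 and 9.73 (-1.62, 35 and 12 reads). The remaining lower gene, Abhd6, was named after its value was seen (-1.14). So was Pla2g4c, which was called higher at 45 and 60 min alone (log2 ratio 0.88 and 1.12) and was at -0.45 at 120 min. Its p-values in the exact test were 0.0418 at 45 min and 0.00832 at 60 min.

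None of the 7 genes in the list of other prostanoid synthases and reductases was called at 60 or 120 min, although the carbonyl reductase gene Cbr1 was called lower at 120 min with total counts without Rn45s as the scale. Of these, 5 had a mean of at least 10, with a median log2 ratio of -0.27 at 120 min. The transport and breakdown list had 0 of 5 called, with 3 over that mean and a median of -0.25. Hpgd, the main enzyme of prostaglandin breakdown, had 0 reads at 0 min and at 120 min, and Hpgds, a prostaglandin D synthase, was at 5853 and 4403 normalized counts.

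Among 7 other prostanoid receptors, 5 had at most 20 reads in every library. The PGE2 receptor gene Ptger1, named after its values were seen, was called higher at 45 min and at no other time. It was at 18.8 normalized counts at 0 min and 49.7 at 45 min (22 and 44 reads, log2 ratio 1.40, p = 0.0263 in the exact test). Pde4b, Ptger1 and Pla2g4c were the 3 pathway genes called higher at 45 min. With total counts, the DESeq2 or edgeR dispersion trend or adjusted p-values, 1 of them was left. Among the receptors of this list, the prostacyclin receptor Ptgir was the one called at 60 and 120 min. Ptgir gave 636.5, 718.4, 541.3, 381.8, 227, 245, 250.1 and 332.3 normalized counts from 0 to 120 min. It was called lower at each of 60, 75, 90 and 120 min (log2 ratio -1.49 at 60 min and -0.94 at 120 min). In the leukotriene list, 8 of 12 genes passed the mean of 10, and 1, the receptor Cysltr1, was called lower at 120 min (1978 to 1053, log2 ratio -0.91), with a list median of -0.32.

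Downstream of EP4, the list of cyclic AMP signalling (18 genes, 16 over the mean of 10) had 2 called higher and 1 lower at 120 min and a median of -0.01. Pde4b, a phosphodiesterase that breaks cyclic AMP down, gave 1302, 1347, 3680, 8691, 10647, 7166, 11175 and 18004 normalized counts. It was called from 30 min on, as Ptgs2 was, and its log2 ratio at 120 min was 3.79. The transcription factor gene Crem was at 464 and 801 at 0 and 120 min (0.79), and the adenylyl cyclase gene Adcy9 at 773 and 420 (-0.88).

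**Figure D5:**
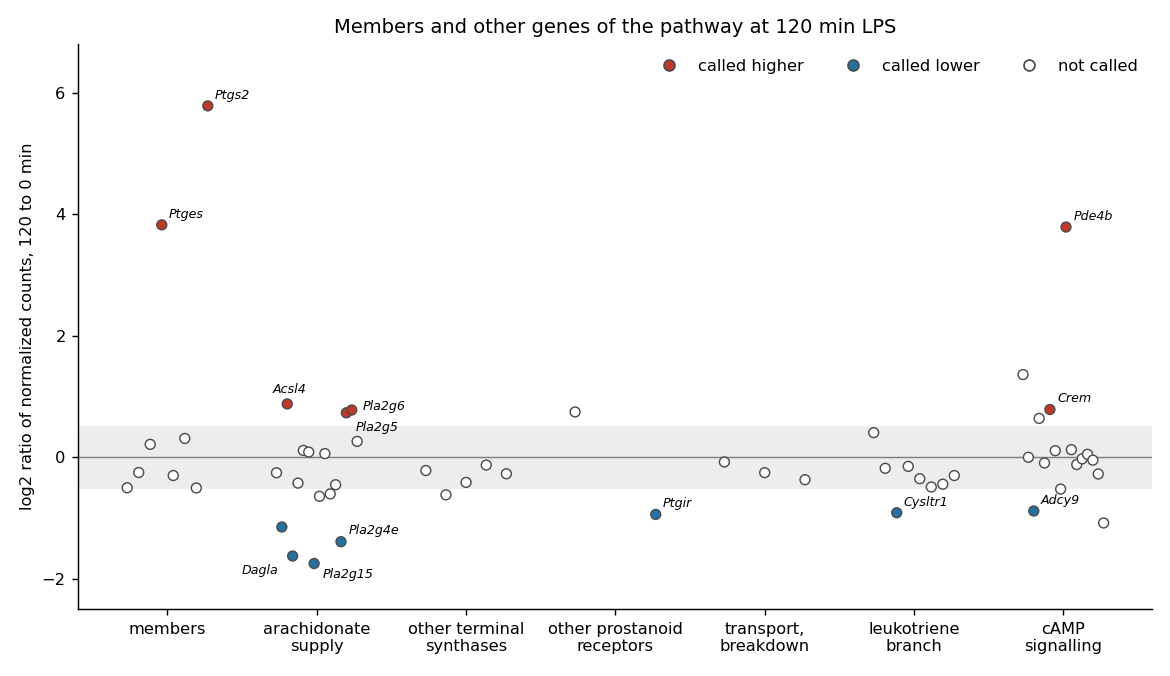
Log2 ratio of normalized counts at 120 min to 0 min (y axis) for the members and the 6 pathway lists (x axis), 1 point per gene that averaged 10 or more normalized counts, 1 library per time; red points are called higher, blue lower, and the grey band spans -0.5 to 0.5. Ptgs2 (5.78), Ptges (3.82) and Pde4b (3.79) stand above all other points, and Pla2g15 (-1.75) is the lowest.

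The genes with the time course most like that of Ptgs2, by the root mean square difference of log2 ratios over the 7 stimulated libraries among 10491 genes with a mean of at least 100 and a read in every library, were Olfr1033 (0.49), Cdc42ep2 (0.51), Mtmr7 (0.52), the transcription factor gene Myc (0.52) and the kinase gene Pim1 (0.56). Their ratios at 120 min ran from 26.0 (Myc) to 51.7 (Mtmr7), beside 55.0 for Ptgs2. For Ptges they were Zc3h12c (0.22), Plek2 (0.27) and the NF-κB subunit gene Rel (0.31), with ratios at 120 min of 16.0, 18.6 and 12.7, beside 14.2. For Ptger4, added after its values were seen because it was not called at 120 min, they were Rabgef1 (0.22), the splicing kinase gene Clk1 (0.23) and Pcf11 (0.25).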

How the data were processed

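The table that the authors deposited holds unnormalized read counts, 1 row per gene symbol and 1 column per time point. Per the methods, ribosomal RNA was removed, 58-base reads were mapped with Bowtie (version not given in the sources used here; at most 2 mismatches) to RefSeq transcripts of mm10, and a read that matched more than 1 gene was left out; multigene families may thus be undercounted. The submitters' processing notes name CASAVA 1.8.2 and DESeq 1.10.1.

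Median-of-ratios size factors and a dispersion trend (0.0287 + 0.853/mean) were taken over the 8 libraries. Each of the 28 library pairs was compared by an exact negative binomial test over all genes in Python 3.11.15, following the DESeq settings stated by the authors. The code was run on counts simulated from this trend, with 100 genes raised and 100 lowered 4-fold at 120 min. All of these were found, and 492 of 10294 unchanged genes with a mean of at least 100 (4.78%) were called. Such counts follow the assumed model, so this run checks the code and not the model. With 1 library per time a quasi-likelihood test in edgeR has no residual degrees of freedom. Ratios have exact conditional binomial intervals and rpkm exact Poisson intervals (95%). Alternatives used edgeR 4.0.16 and DESeq2 1.42.0 in R 4.3.3.

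Members and lists were chosen with earlier results of these data known. Named genes were the members, from each pathway list up to 3 genes called in each direction at 120 min with the largest log2 ratio and a mean of at least 10, and the 5 (Ptgs2) or 3 genes most like a called member. Pentamer counts and the genes like Ptger4 were chosen after the data were seen. Promoter sequences and coordinates are from RefSeq (GRCm38.p6); lengths are from GENCODE vM21 transcripts matched by RefSeq accession.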

Additional observations from a re-analysis of the deposited data

How the results depend on the processing

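With 1 library per time there was nothing to test a difference between times against, and depth limited only Ptger2 and, less so, Ptges at 0 to 30 min. The pattern group of every member was unchanged under the 16 alternatives run for it. Those that left out libraries or only made calls stricter can add no call, so under them a member in g0 could not move. The number of members called higher or lower was unchanged under its 8 alternatives at every time but 45 min. There, 3 members were called higher, but 1 (Ptgs2) with Benjamini-Hochberg adjusted p-values and 2 (without Ptger4) with total counts as the scale, with or without Rn45s (log2 ratio 0.59 and 0.72), the edgeR trend or a log2 limit of 1. Total counts lowered the log2 ratio of every gene by 0.33 at 75 min and 0.2 at 120 min.

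Counts over all genes moved more. At 120 min, 1196 genes were called higher, and 677 with total counts, 755 without Rn45s, 761 with a log2 limit of 1 and 603 with adjusted p-values. Lower calls at 120 min went from 1049 to 657 with the limit of 1 and 487 with adjustment, and rose to 1250 with total counts and 1432 without Rn45s, so that more genes were lower than higher. At 75 min, total counts took 729 higher and 531 lower calls to 357 and 1066. At 60 min adjustment left 246 of 532 higher calls. Lower calls at 60 min went from 366 to 174 with the edgeR dispersion trend, 193 with the limit of 1 and 89 with adjustment. Of the 69 pathway genes, 5 were called higher at 120 min, but 1 with total counts with or without Rn45s, the limit of 1 or adjustment, and 3 with the edgeR trend; 7 were lower, but 8 (Cbr1 added) without Rn45s, 4 with the edgeR trend or the limit of 1 and 3 with adjustment. At 60 min, 1 in place of 2 was higher with the edgeR trend or adjustment. At 45 min, 3 were higher, but 1 with total counts, the DESeq2 or edgeR trend or adjustment. It was 2 there with total counts without Rn45s or with the limit of 1. Of the 5 genes most like Ptgs2, 0 were among the 5 with the highest Pearson correlation of log2 values (n = 8 libraries), which disregards the size of the rise. The genes named as like Ptges and Ptger4 also depended on the measure. By that correlation the 3 nearest were Rnpc3, Eif1a and Slc15a3 for Ptges, and Zfp644, Clk1 and Usp38 for Ptger4, with Clk1 alone named by both measures.

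No paired analysis was possible because each time point has 1 library and the groups share fewer than 2 replicate numbers.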
